A study of Mus musculus with 18 samples.

Results

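Metallothioneins and the proteins that sense and carry zinc were followed through 7 genes in differentiating neurosphere cultures of mouse embryos. The genes were the metallothioneins Mt1, Mt2 and Mt3, the zinc sensor Mtf1, the importers Slc39a8 and Slc39a14 and the exporter Slc30a1. All probe sets that the array annotation pairs with 1 of these symbols alone were taken, which gave 17 of the 45101 probe sets of the Affymetrix Mouse Genome 430 2.0 array, for 7 of the 18194 genes that it names singly. Mtf1 has 5 of them, Slc39a14 4, Mt1, Slc39a8 and Slc30a1 2 each, and Mt2 and Mt3 1 each. No probe set named a member together with another gene. The cultures came from the ganglionic eminences, the ventral forebrain domain that forms the striatum, of C57BL/6 mouse embryos at E15.5. Neurosphere cells were dissociated and plated for differentiation in a medium with fetal calf serum and without EGF, which all groups shared. The sources differ on whether bFGF had been withdrawn when the treatments began. There were 2 arrays with 10 ng/ml BMP2, 2 with 50 nM trichostatin A (TSA) and 2 controls without either at 6 h, and 2 with BMP2, 4 with TSA and 6 controls at 24 h. BMP2 is a secreted ligand of the BMP receptors and TSA an inhibitor of class I and II histone deacetylases. Nothing in the labels tells whether replicate arrays came from separate cultures, and the p-values cover the spread between arrays, which may be technical.

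Metallothioneins are small, cysteine-rich proteins that bind zinc and copper. When free zinc rises, the zinc finger protein MTF1 binds metal response elements in front of Mt1, Mt2 and Slc30a1 and activates them. Slc39a8 (ZIP8) and Slc39a14 (ZIP14) bring zinc, manganese and iron into the cytosol, and Slc30a1 (ZnT1) sends zinc out across the plasma membrane. In the brain Mt1 and Mt2 are known as genes of astrocytes that also respond to glucocorticoids and stress, and Mt3 is the form typical of neural tissue.

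Mt1, Mt2 and Slc30a1 had been seen to follow each other closely between arrays on their brightest probe sets, and Mt3 less so. The promoters below were picked for display after that. They are RefSeq sequences of GRCm38.p6 on the plus strand, the strand of these genes, from 250 bases before to 50 bases after 1 annotated start. The genes Mt1 and Slc30a1 as a whole begin at 94178883 and 191906697, inside the 250 bases before the start used here. Positions of their matches hold for that start alone. Capitals mark matches to the core of the metal response element, searched as TGCGCNC and TGCACNC on both strands.
Mt1, chr8:94178839-94179138: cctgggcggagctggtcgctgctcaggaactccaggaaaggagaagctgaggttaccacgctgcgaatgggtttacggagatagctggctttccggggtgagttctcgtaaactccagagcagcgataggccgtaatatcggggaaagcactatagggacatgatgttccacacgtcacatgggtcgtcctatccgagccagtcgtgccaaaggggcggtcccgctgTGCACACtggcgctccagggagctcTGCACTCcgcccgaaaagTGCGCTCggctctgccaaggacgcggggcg
Mt2, chr8:94172368-94172667: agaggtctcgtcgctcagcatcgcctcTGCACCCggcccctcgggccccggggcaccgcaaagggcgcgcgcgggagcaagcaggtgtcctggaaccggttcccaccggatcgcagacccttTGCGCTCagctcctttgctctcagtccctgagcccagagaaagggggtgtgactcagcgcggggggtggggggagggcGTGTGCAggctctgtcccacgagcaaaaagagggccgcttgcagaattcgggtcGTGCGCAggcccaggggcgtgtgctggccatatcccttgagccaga
Mt3, chr8:94152357-94152656: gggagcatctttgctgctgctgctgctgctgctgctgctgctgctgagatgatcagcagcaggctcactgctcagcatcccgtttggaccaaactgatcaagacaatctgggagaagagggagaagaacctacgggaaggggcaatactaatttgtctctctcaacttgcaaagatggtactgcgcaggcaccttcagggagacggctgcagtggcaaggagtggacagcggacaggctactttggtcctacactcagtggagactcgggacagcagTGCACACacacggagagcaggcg
Slc30a1, chr1:191906531-191906830: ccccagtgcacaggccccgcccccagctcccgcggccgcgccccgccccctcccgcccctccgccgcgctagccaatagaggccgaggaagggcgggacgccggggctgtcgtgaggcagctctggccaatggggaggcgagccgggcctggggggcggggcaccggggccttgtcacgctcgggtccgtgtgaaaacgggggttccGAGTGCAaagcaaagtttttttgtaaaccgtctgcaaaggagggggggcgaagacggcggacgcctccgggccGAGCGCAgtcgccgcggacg
Mt1 has 3 matches, Mt2 4, Slc30a1 2 and Mt3 1. Of the other members, Mtf1 has 0 matches and Slc39a8 has 1 in the second of its 2 windows and 0 in the first. Of all 32851 promoter windows of this length, 25.7% hold at least 1 match, 7.11% at least 2, 1.97% at least 3 and 0.517% at least 4. A match describes the letters and is not shown to be a working site. Whether the matches bear on how these genes followed each other was not tested.

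**Figure D1:**
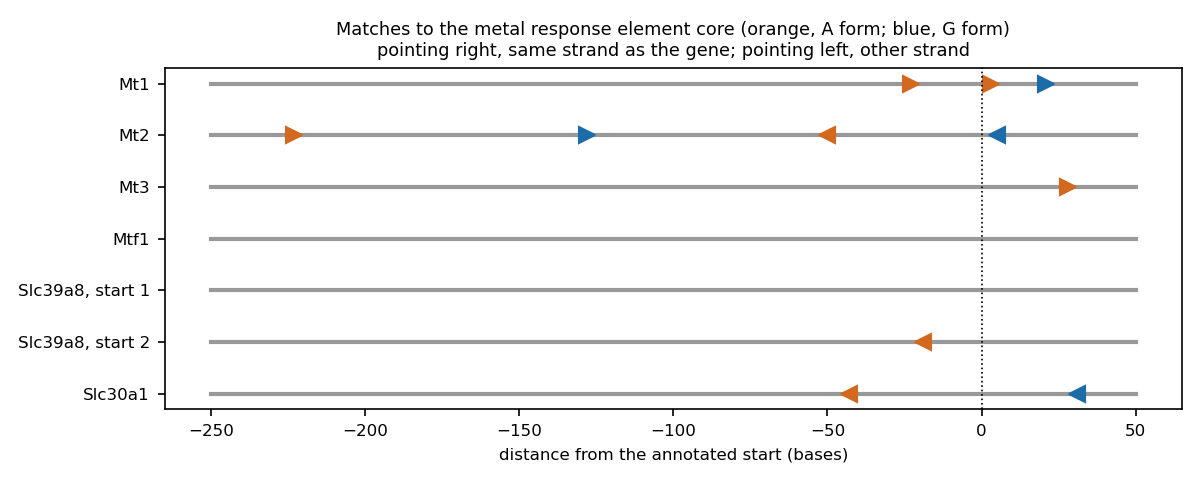
Positions of the matches (x axis, bases from the start used at 0, marked by a dotted line) in each 300-base promoter window (grey lines). The matches of Mt1 lie from position -23 to 21 of the start used, and those of Mt2 from -223 to 5.

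The values are linear signals that were quantile-normalized over the 18 arrays. Their log2 after adding 32 was fitted with limma in 1 model of the 6 groups, and a probe set is called at a Benjamini-Hochberg adjusted p under 0.05. Adding 32 understates the change of dim probe sets, and signals of different probe sets cannot be read as relative levels of their RNAs. The brightest signal on the arrays was 11492. At their brightest, the brighter probe set of Mt1 and those of Mt2 and Mt3 ranked 5, 25 and 79 of 45101. Changes so near the top of the scale may be understated, which was not tested. A probe set was tested if at least 1 group averaged 100 or more, which left 19439 in all and 10 of the 17 member probe sets. The other 7 had group means of 4.09 to 80.5. The dimmer probe set of Mt1 and the brighter one of Slc39a8 passed this filter only through 24 h groups with treatment in which they were high, so that a difference between groups was built into their passing. The dimmer ones of Mtf1 and Slc30a1 passed only through 24 h groups, near 100, which bears on comparisons between the times. Xist, the RNA of the inactive X chromosome, has 3 tested probe sets. The one used to group the arrays had signals of 703 to 2086 on 4 arrays of 24 h, the pair with BMP2 and controls 5 and 6, against 18.4 to 75.5 on the other 14 arrays. The brightest of the 3 also separated these 4 arrays, with 2197 to 4467 against 325 to 1875, and the dimmest ran the other way and overlapped, with 23.4 to 97.5 against 66.8 to 375. The labels name no batch. Results of 24 h that change with this grouping are given with it for the 7 genes and for the named zinc, copper and iron genes.

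TSA raised the importers Slc39a14 and Slc39a8, the exporter Slc30a1 and the metallothioneins Mt3 and, on its dimmer probe set, Mt1 at 6 h, 24 h or both, and of the members only Slc39a8 was called after BMP2. After 6 h of TSA 2 of the 10 tested probe sets were called in limma, in Slc39a14 and Slc30a1, both higher, where 22.5% of all tested probe sets were called and 12.1% were called higher. After 24 h of TSA 4 of 10 were called, all higher, in Mt1, Mt3, Slc39a8 and Slc39a14, against 35.4% of all in either direction and 16.6% higher. After 24 h of BMP2 1 of 10 was called, Slc39a8, higher, against 16.5% of all and 8.42% higher. After 6 h of BMP2 0 of 10 were called, against 1.47% of all, and 0 had an unadjusted p under 0.05. In TSA against BMP2, 2 of 10 were called at 6 h, both higher, against 24.3% of all and 12.8% higher. At 24 h 6 of 10 were called in this comparison, in 5 genes and all higher, against 38% of all and 18.5% higher. Among these calls, those of Slc39a8 and of the dimmer probe set of Mt1 had a difference between groups built in by the filter. Without them the calls left were in Mt3 and Slc39a14 at 24 h of TSA and none at 24 h of BMP2. In TSA against BMP2 at 24 h they were in Mt1, Mt2, Slc39a14 and Slc30a1. The comparisons with controls of 1 time share those controls, and TSA against BMP2 shares its arrays with both.

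The arrays of the compared groups did not overlap for 6 of 10 probe sets at 6 h of TSA and for 2 of 10 at 6 h of BMP2, against 75.2% and 44% of all tested probe sets. They did not overlap for 3 of 10 at 24 h of TSA and 3 of 10 at 24 h of BMP2, against 20.8% and 29.9% of all. In TSA against BMP2 they did not overlap for 4 of 10 at 6 h and 7 of 10 at 24 h, against 75.3% and 55.5% of all. Under the criteria of the study, a ratio over 2, a difference over 100 and an unadjusted p under 0.1, Slc39a8 was called at 24 h of TSA, where 3.47% of all probe sets were. In TSA against BMP2 the brighter probe set of Slc30a1 was called at 6 h (4.6% of all) and Mt1, Mt2 and Slc39a8 at 24 h (6.67% of all). No member met these criteria at 6 h of BMP2 (0.893% of all), 6 h of TSA (4.14%) or 24 h of BMP2 (3.6%).

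**Figure D2:**
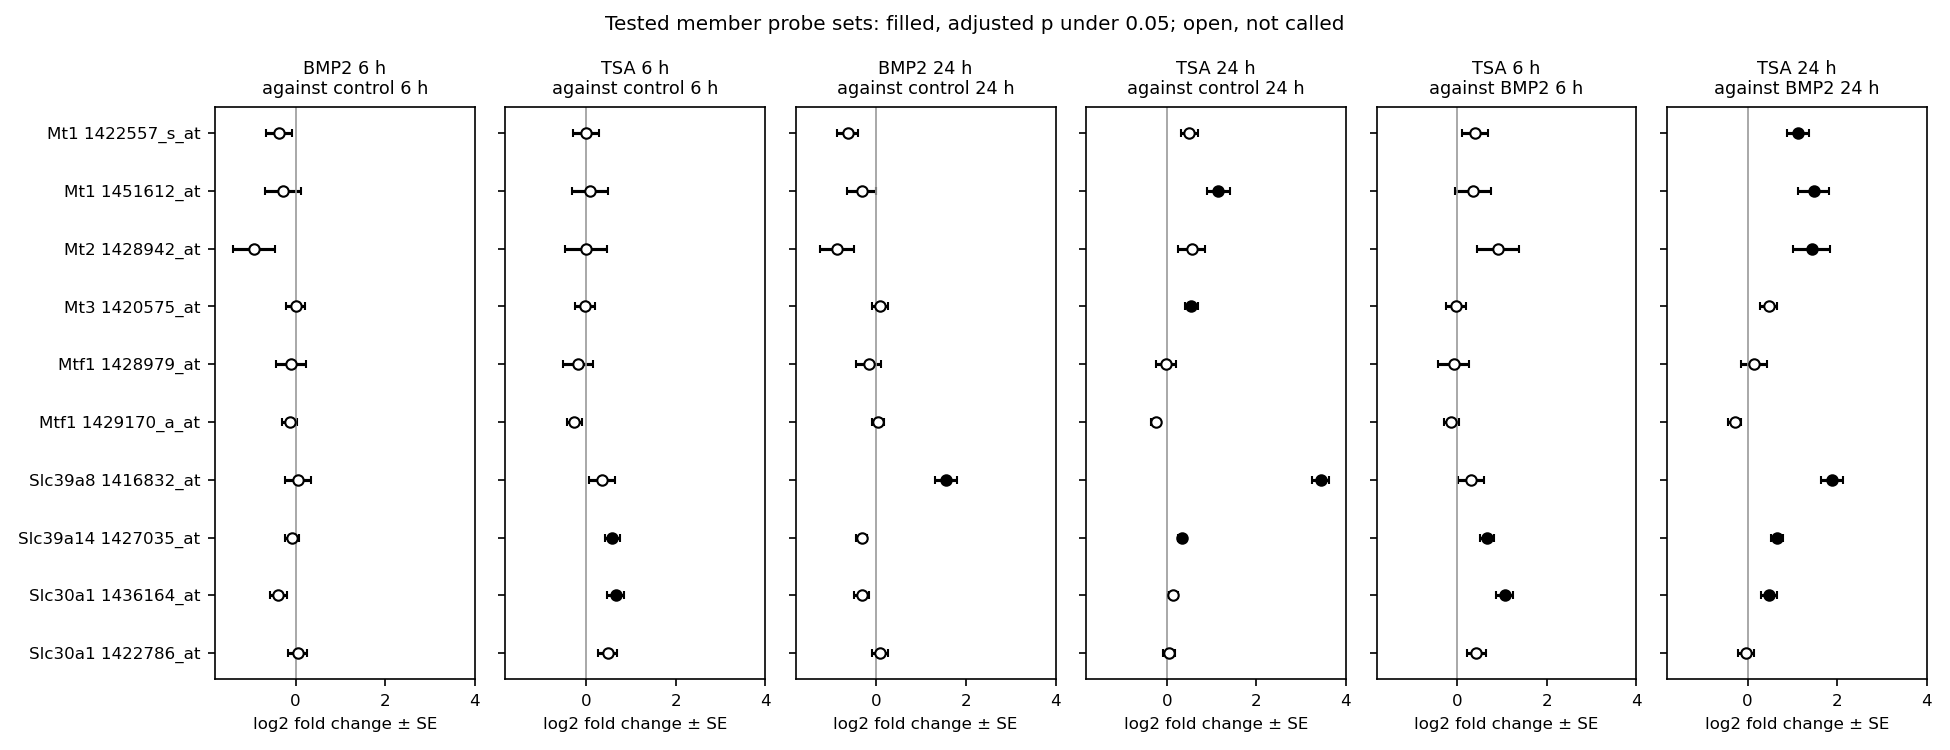
Log2 fold changes (x axis, points) with their standard errors (bars) of the 10 tested probe sets in 6 comparisons. Filled points have an adjusted p under 0.05, and that of Slc39a8 at TSA 24 h, at 3.44, is the largest.

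After 24 h of TSA, Mt2 had signals of 8715, 8526, 8509 and 8013, while the 6 controls had 3685 at the lowest, 5962 at the median and 7250 at the highest. All TSA arrays lay above all controls. The log2 difference of 0.56 (SE 0.30) did not pass the test (adjusted p = 0.168), and of 22 alternatives 1 called it, the fit of these groups alone (adjusted p = 0.0203).

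The brighter probe set of Mt1 had 10290, 10180, 8751 and 9123 after 24 h of TSA, against 5391 at the lowest, 6620 at the median and 8855 at the highest in the controls. Only the highest control reached into the range of TSA. The log2 difference was 0.50 (SE 0.19, adjusted p = 0.0525), and 0.45 (SE 0.15, adjusted p = 0.0294) with the replicate number as a block. It stayed uncalled in 17 of 22 alternatives, with adjusted p up to 0.186, among them the Xist group as a term (0.45, adjusted p = 0.116). The other calls were those without control replicate 1 (adjusted p = 0.0424) or 2 (0.0293), in a fit of these groups alone (0.0139) and with the block within Xist groups (0.0363). The dimmer probe set of Mt1 had 63.3, 171, 118 and 177 in TSA against 12.4 to 74.6 in the controls, with a log2 fold change of 1.15 (SE 0.26, adjusted p = 0.00281). The suffix of the brighter probe set (s_at) marks probes that can also match related transcripts, and Mt1 and Mt2 are close paralogs, so part of their signals may be shared.

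After 6 h of TSA, Mt1 stood at 4495 and 6601, against 4512 and 6485 in the controls, and Mt2 at 2803 and 5074 against 2847 and 5068. The pairs of values were nearly equal, and the adjusted p were 0.987 and 0.992. The 6 h arrays with replicate number 1 were lower than those with number 2 in all 3 groups for both genes.

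Under BMP2 the signals of Mt1 and Mt2 averaged below those of the controls, and neither difference passed the test. At 6 h Mt2 had 1329 and 2943 in BMP2, against 2847 and 5068 in the controls, a log2 difference of -0.93 (SE 0.47, adjusted p = 0.906). Mt1 had 3413 and 5030 in BMP2, against 4512 and 6485 in the controls, with -0.38 (SE 0.29, adjusted p = 1). Each BMP2 array was lower than the control of its number, and the ranges overlapped. Leaving out 1 array moved the difference of Mt2 between -1.49 (without BMP2 replicate 2) and -0.37 (without BMP2 replicate 1) and that of Mt1 between -0.66 and -0.10, with no call. At 24 h Mt2 had 5664 and 1702 in BMP2 and 3685 to 7250 in the controls, with -0.87 (SE 0.38, adjusted p = 0.132). For Mt1 the values at 24 h were 6056 and 3119 in BMP2 and 5391 to 8855 in the controls, with -0.64 (SE 0.24, adjusted p = 0.0812). BMP2 replicate 2 lay below all controls for both genes and replicate 1 within them. Without replicate 1, Mt1 differed by -1.11 (adjusted p = 0.0217) and Mt2 by -1.73 (adjusted p = 0.0169). Without replicate 2 they differed by -0.16 (adjusted p = 0.781) and -0.02 (adjusted p = 0.989), so that the differences of 24 h rested on replicate 2. Against the 2 controls of the same Xist group the differences were -0.54 and -0.64 and were not called (adjusted p = 0.34 and 0.516).

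Set directly against BMP2 at 24 h, TSA gave higher Mt1 and Mt2. The log2 differences were 1.13 for the brighter probe set of Mt1 (SE 0.25, adjusted p = 0.00296), 1.48 for its dimmer one (SE 0.35, adjusted p = 0.00389) and 1.43 for Mt2 (SE 0.41, adjusted p = 0.0125), with all 4 TSA arrays above both BMP2 arrays each time. All 4 TSA arrays belong to the low Xist group and both BMP2 arrays to the high one. With the Xist group as a term the differences became 0.99, 0.80 and 1.08 and were no longer called (adjusted p = 0.091, 0.262 and 0.256). Without BMP2 replicate 2 they were 0.66, 1.12 and 0.57 (adjusted p = 0.105, 0.0824 and 0.342).

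**Figure D3:**
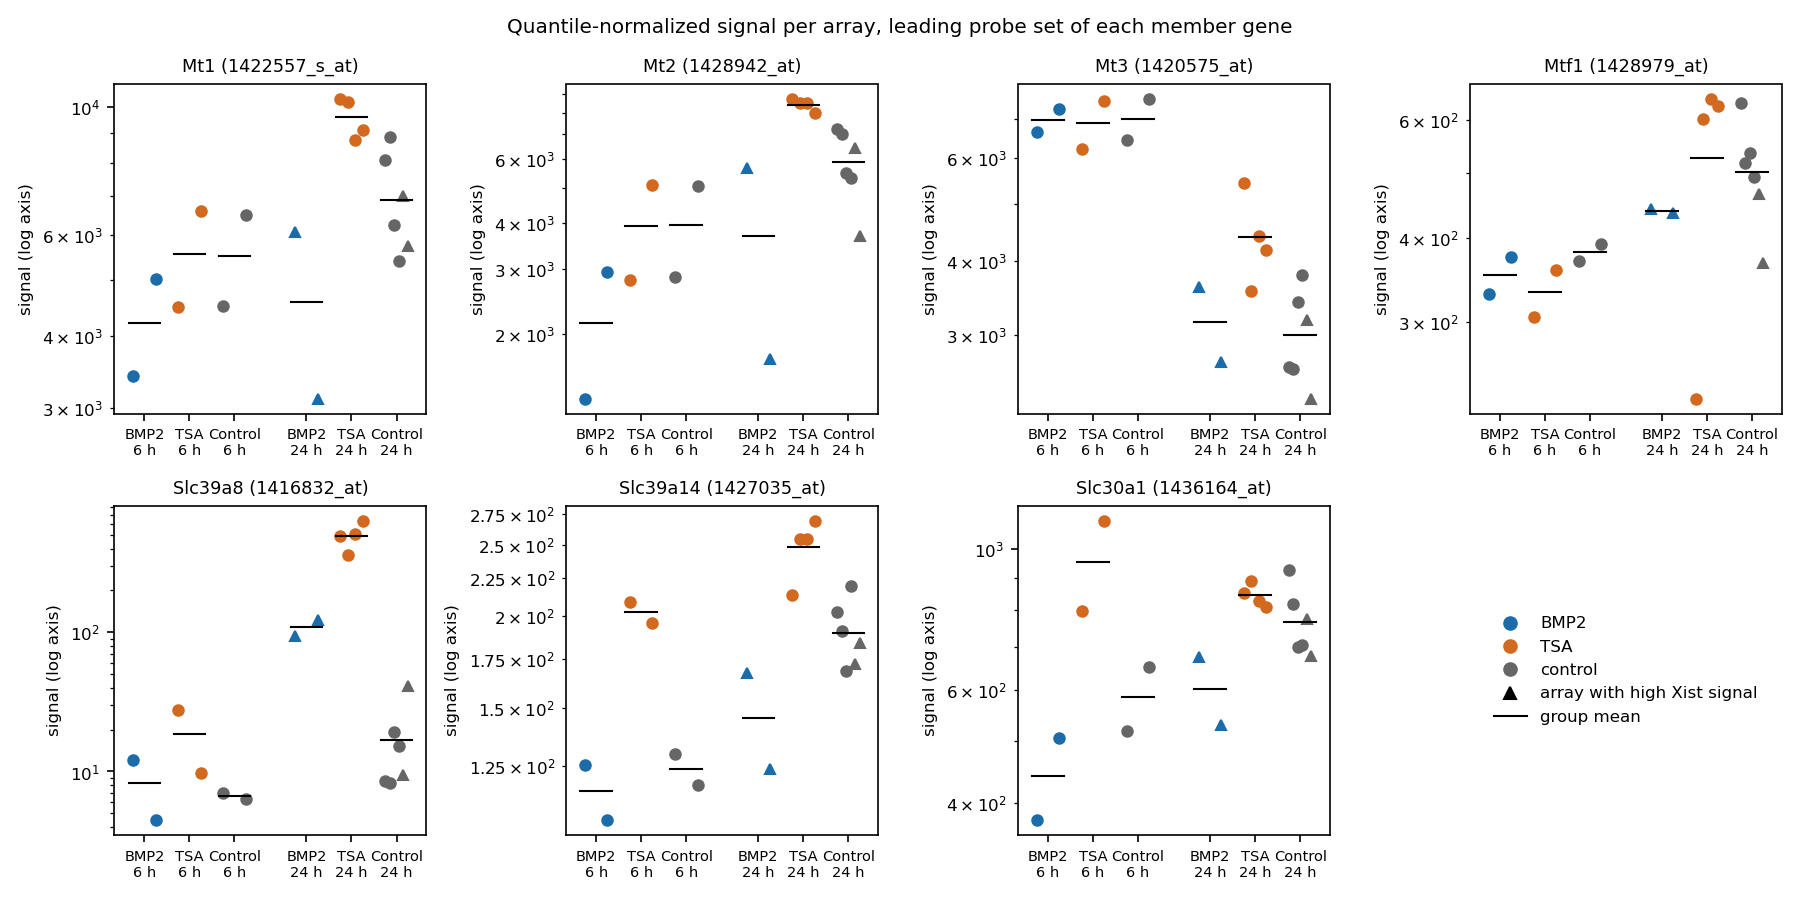
Quantile-normalized signals (y axis, log scale, a scale for each panel) of the brightest probe set of each gene on all 18 arrays, by group (x axis). Lines are group means and triangles are the 4 arrays with a high Xist signal. Slc39a8 is at 358 to 632 in TSA 24 h and under 41 in all control arrays.

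On their brightest probe sets Mt1, Mt2 and Slc30a1 followed each other from array to array, also within groups. Over the 18 arrays the log2 signals of Mt1 and Mt2 correlated at r = 0.96, and their deviations from the group means at r = 0.93. The probe set of Mt1 used here is the brighter one, part of whose signal may be shared with Mt2. Both genes lay on the same side of their group means on 17 of 18 arrays. In groups of 2 arrays the deviations are equal and opposite, so that the 2 arrays count as 1 outcome. No share over other pairs of genes was computed. The deviations of Slc30a1 correlated with those of Mt1 at r = 0.91 and with those of Mt2 at r = 0.89. Mt3, the neighbour of Mt2 on the chromosome, had 0.23 with Mt1 and 0.47 with Mt2, and Mtf1 0.12 and 0.22. The deviations of Slc39a8 ran against those of Mt1 (r = -0.63) and Slc30a1 (r = -0.71). On all 6 h arrays and 24 h controls, however, Slc39a8 was dim, at 4.47 to 40.9, with the highest value on control replicate 6 alone. In the log2 signals themselves Slc30a1 had r = 0.76 with Mt1 and 0.80 with Mt2. Slc39a14 had 0.70, 0.72 and 0.77 with Mt1, Mt2 and Slc30a1, but 0.03, 0.13 and 0 in its deviations. Dimmer probe sets, among them those of Mt1 and Slc30a1, were left out of the correlations. The dimmer one of Mt1 was lowest (63.3) on TSA replicate 1 of 24 h, where the brighter one was highest (10290). Their orders also differed among the 24 h controls, and were the same within each 6 h group and in BMP2 of 24 h. That of Slc30a1 was higher on BMP2 replicate 2 of 24 h (128) than on replicate 1 (112), while Mt1 was lower on replicate 2. At 6 h it went with Mt1 from replicate 1 to 2 in every group. These correlations are descriptions over arrays that share replicate numbers and groups, with n = 18.

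**Figure D4:**
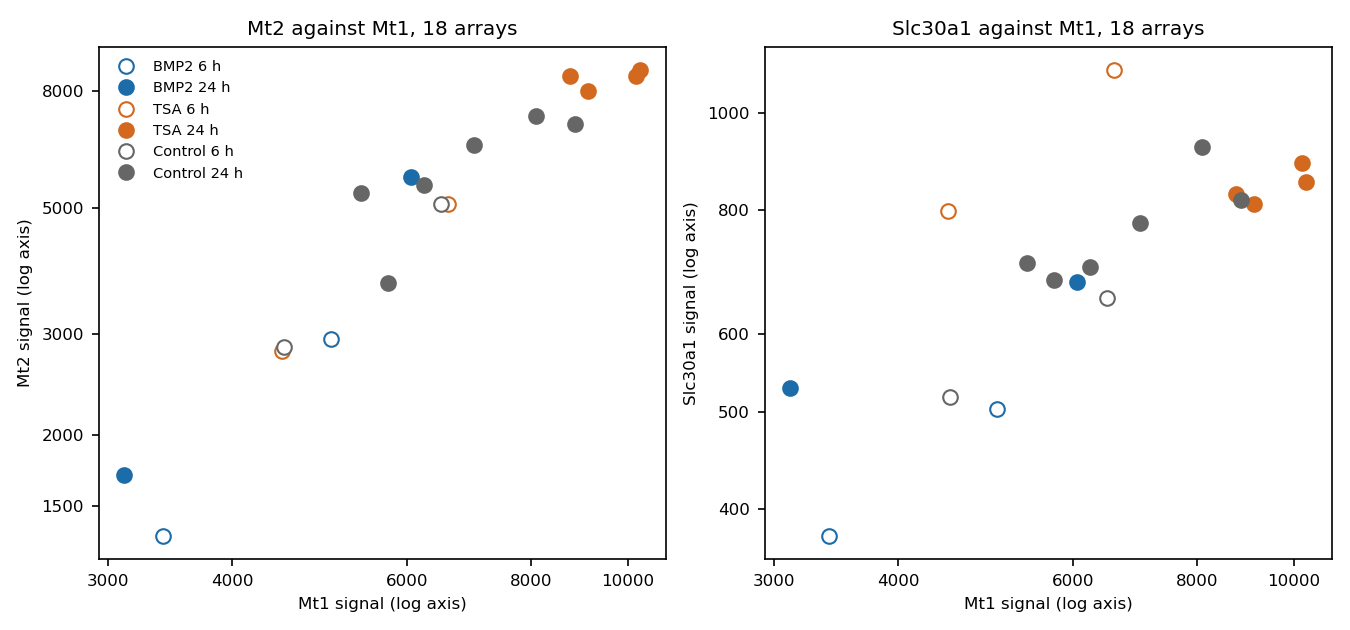
Signals of Mt2 (left) and Slc30a1 (right) against Mt1 on the 18 arrays, all axes logarithmic, with open circles for 6 h and filled circles for 24 h. Mt2 follows Mt1 across all groups (r = 0.96), and for Slc30a1 the 2 arrays of TSA 6 h stand above arrays of like Mt1 signal. Part of the signals of Mt1 and Mt2 may be shared.

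Mt3 was lower in the controls of 24 h than in those of 6 h, where time and set of arrays cannot be told apart. It had signals of 2335 at the lowest, 2908 at the median and 3784 at the highest in the 24 h controls, against 6428 and 7544 in the 6 h controls. No 24 h control came near the 6 h controls, and the log2 difference was -1.23 (SE 0.18, adjusted p = 0.00275). Of the 10 member probe sets 3 were called between these control groups, against 4.39% of all tested probe sets, with 2 higher (1.53% of all) and 1 lower (2.86%), and 5 did not overlap (24.3% of all). Among these 3 is the dimmer probe set of Slc30a1, which passed the filter only through 24 h groups. Mt3 also met the criteria of the study, as 0.802% of all probe sets did. Without control replicate 1 or 2 of 6 h the difference was -1.34 or -1.11 and was not called (adjusted p = 0.0702 and 0.0778), and a fit of the control arrays alone gave an adjusted p of 0.0519.

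At 6 h Mt3 was alike in the group means, with 6633 and 7280 in BMP2, 6223 and 7511 in TSA and 6428 and 7544 in the controls. After 24 h of TSA it had 5438, 3559, 4415 and 4183, above 2335 to 3784 in the controls on 3 of 4 arrays. The log2 fold change was 0.55 (SE 0.14, adjusted p = 0.00592), and against the controls of the same Xist group 0.50 (adjusted p = 0.0197). BMP2 at 24 h had 3614 and 2699 (log2 difference 0.08, SE 0.18, adjusted p = 0.793). The difference between the TSA effects of 24 h and 6 h was 0.58 (SE 0.26) and not called (adjusted p = 0.168). Mt4, the metallothionein of squamous epithelia, had group means of 4.40 to 8.92 and was not tested.

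Mtf1, which encodes the zinc-sensing transcription factor, was called in none of the 9 comparisons on either of its tested probe sets. Its brighter one had 330 and 375 in BMP2, 306 and 359 in TSA and 369 and 393 in controls at 6 h. At 24 h it had 441 and 436 in BMP2, 231, 602, 643 and 630 in TSA, and 368 to 635 in the controls. TSA replicate 1 was thus below all controls and the other 3 TSA arrays were at their upper end. With all 4 TSA arrays the log2 difference was -0.02 (SE 0.22), and without replicate 1 it was 0.31 (SE 0.13, adjusted p = 0.0799), a change of sign. The second probe set had 86.0, 65.5, 87.5 and 86.9 in TSA at 24 h, just below all controls with 87.6 to 137 (log2 difference -0.25, SE 0.11, adjusted p = 0.0956).

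Slc39a8, the importer ZIP8, had the widest range of the 7 genes and was high only at 24 h of treatment. On its brighter probe set it had 489, 358, 506 and 632 after 24 h of TSA, 94.4 and 123 after 24 h of BMP2, and 8.21 at the lowest, 12.4 at the median and 40.9 at the highest in the 24 h controls. The 3 groups did not overlap. The log2 fold changes were 3.44 for TSA (SE 0.19, adjusted p = 1.38e-08) and 1.55 for BMP2 (SE 0.24, adjusted p = 0.000274), and TSA exceeded BMP2 by 1.89 (SE 0.25, adjusted p = 4.71e-05), or by 2.19 with the Xist group as a term (adjusted p = 0.000698).

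At 6 h the signals of Slc39a8 were 12.2 and 4.47 in BMP2, 27.4 and 9.79 in TSA and 7.05 and 6.38 in the controls. The ranges of BMP2 and controls overlapped and both TSA arrays lay above the controls, all at dim levels, with a log2 difference of 0.36 for TSA (SE 0.29, adjusted p = 0.411). The TSA effect of 24 h exceeded that of 6 h by 3.08 (SE 0.34, adjusted p = 0.00032). It was the single call among the 10 in this test, where 9.85% of all probe sets were called and 4.32% higher. This probe set had passed the filter only through its high 24 h groups. For BMP2 this difference was 1.50 (SE 0.37, adjusted p = 0.112), where 0.628% of all were called, and it passed without control replicate 6 of 24 h (1.62, adjusted p = 0.0266), the control with 40.9. Against controls of the same Xist group the changes were 3.54 for TSA (adjusted p = 5.95e-08) and 1.35 for BMP2 (adjusted p = 0.00516). The second probe set had 70.9, 24.5, 62.5 and 71.1 in TSA at 24 h, 5.44 and 3.62 in BMP2 and 2.70 to 12.6 in the controls, so that it stood above the controls in TSA alone. It was below the limit for testing.

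Slc39a14, the importer ZIP14, rose early with TSA. On its tested probe set it had 209 and 196 after 6 h of TSA, against 130 and 118 in the controls, and 126 and 106 after BMP2. The TSA arrays stood above all 4 others. The log2 fold change against controls was 0.59 (SE 0.16, adjusted p = 0.0158) and against BMP2 0.67 (SE 0.16, adjusted p = 0.00676). With any 1 of the 4 TSA and control arrays left out, the first was 0.53 to 0.65 and not called (adjusted p = 0.0567 to 0.109). Against BMP2 it was lost without BMP2 replicate 2 (adjusted p = 0.0777) or TSA replicate 1 (0.0559).

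At 24 h Slc39a14 had 214, 255, 255 and 269 in TSA and 169 to 220 in the controls, so that the ranges met at 1 TSA array. The log2 fold change was 0.34 (SE 0.10, adjusted p = 0.0193), and it was 0.27 with median scaling (adjusted p = 0.0549) and 0.30 without TSA replicate 4 (adjusted p = 0.0597). BMP2, with 167 and 124, lay below all controls, with -0.33 (SE 0.13, adjusted p = 0.101). TSA exceeded BMP2 by 0.66 (SE 0.14, adjusted p = 0.00191), or by 0.55 with the Xist group as a term (adjusted p = 0.0702) and 0.49 without BMP2 replicate 2 (adjusted p = 0.0602). The controls themselves were higher at 24 h than at 6 h, by 0.51 (SE 0.13, adjusted p = 0.042), a call that was lost without either 6 h control (adjusted p = 0.34 and 0.294), without 24 h control replicate 1, 2 or 4 (adjusted p = 0.0695, 0.0603 and 0.0601), in a fit of the controls alone (0.128), without the filter (0.106) and on the deposited values (0.0641). The other 3 probe sets of Slc39a14 were under the limit for testing, and the brightest of them did not have the higher signals of TSA at 6 h, with 68.9 and 69.4 in TSA against 68.8 and 92.2 in the controls. At 24 h it had 57.9 to 87.8 in TSA and 52.1 to 74.1 in the controls.

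Slc30a1, the exporter ZnT1, also rose at 6 h of TSA. On its brighter probe set it had 798 and 1105 in TSA, against 519 and 652 in the controls and 376 and 504 in BMP2, so that TSA stood above both other groups and BMP2 below the controls. The log2 fold change of TSA was 0.66 (SE 0.19, adjusted p = 0.021), and it was not called without TSA replicate 2 (0.44, adjusted p = 0.252) or control replicate 1 (0.51, adjusted p = 0.19). TSA exceeded BMP2 by 1.06 (SE 0.19, adjusted p = 0.000999). BMP2 differed from the controls by -0.39 (SE 0.19, adjusted p = 0.858). The dimmer probe set gave 76.0 and 106 in TSA against 53.8 and 57.1 in the controls (0.48, SE 0.21, adjusted p = 0.109). On these arrays the log2 differences of Mt1 and Mt2 between TSA and controls were 0.01 (SE 0.29) and -0.01 (SE 0.47).

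At 24 h Slc30a1 had 853, 891, 829 and 810 in TSA, within 679 to 926 in the controls (0.14, SE 0.12, adjusted p = 0.398), and 677 and 529 in BMP2, below them (-0.33, SE 0.16, adjusted p = 0.156). The TSA effect was smaller at 24 h than at 6 h by a log2 difference of -0.52 (SE 0.23, adjusted p = 0.163), which was not called. TSA exceeded BMP2 by 0.48 (SE 0.17, adjusted p = 0.0339). This was not called with the Xist group as a term (0.37, adjusted p = 0.342), with median scaling (0.37, adjusted p = 0.113), without BMP2 replicate 2 (0.31, adjusted p = 0.317), without TSA replicate 1 or 2 (adjusted p = 0.0534 and 0.0597) or without the filter (adjusted p = 0.0517). The dimmer probe set did not share it, with 141, 111, 105 and 112 in TSA and 112 and 128 in BMP2 (-0.03, SE 0.18, adjusted p = 0.905), and BMP2 lay there within the controls (0.08, SE 0.17, adjusted p = 0.779).

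Between the control groups Slc30a1 was called on its dimmer probe set and not on its brighter one, which differed by 0.37 (SE 0.16, adjusted p = 0.174). The dimmer one passed the filter only through its 24 h groups. A difference between the times was thus partly built into its being tested. On the dimmer probe set the controls of 24 h had 90.2 to 156, above 53.8 and 57.1 in those of 6 h (0.71, SE 0.17, adjusted p = 0.0278), which was lost without either 6 h control (adjusted p = 0.366 and 0.191), without 24 h control replicate 1 (0.0501), in a fit of the controls alone (0.129) and without the filter (0.063).

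Among all tested genes, those whose log2 signals over the 18 arrays were most like Mt1 were Mt2 (r = 0.958), Gpr146 (0.908) and Acot11 (0.905). For Mt2 they were Mt1, Clu (0.933), which encodes the secreted chaperone clusterin, and Gpr146 (0.900). Part of the signals of Mt1 and Mt2, which are close paralogs, may be shared. Slc39a8 was closest to Fbln2 (0.961), the matrix protein fibulin-2, Hpcal4 (0.958) and Tnfaip6 (0.958). Mt3 was closest to Dtx3 (0.945), Slc39a14 to Riox2 (0.933), Slc30a1 to Acadm (0.896) and Mtf1 to Exoc3 (0.863). No other member stood among the 3 closest genes of Mt3, Mtf1, Slc39a8, Slc39a14 or Slc30a1.

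Some other zinc carriers of the ZnT family also rose at 6 h of TSA. Of 10 listed exporters and vesicular carriers 7 were tested, and 3 were called higher with 0 lower (22.5% of all probe sets were called), with a median log2 difference of 0.43 over the 7 and 0.006 over all probe sets. Slc30a9 had a mean of 1569 ± 40.7 in TSA and 984 ± 74.5 in controls (SD, n = 2 each), with a log2 fold change of 0.66 (adjusted p = 0.00237). Slc30a7, a carrier of the Golgi, had 525 ± 28.1 in TSA and 273 ± 16.8 in controls (0.87, adjusted p = 0.00638), and was not called without control replicate 2 or TSA replicate 1. Slc30a6 had 0.43 (adjusted p = 0.0313), lost when any 1 of the 4 arrays was left out. At 24 h of TSA 1 of the 7 was called higher, Slc30a6 (0.23, adjusted p = 0.0469), lost in 13 of its 22 alternatives, and 1 lower, where 35.4% of all probe sets were called. The lower one was Tmem163, a zinc carrier of vesicles, with 73.4 ± 103 (SD, n = 4) in TSA and 909 ± 397 (SD, n = 6) in controls, a log2 fold change of -3.43 (SE 0.44, adjusted p = 2.61e-05). After BMP2 0 of 7 were called at 6 h and 0 at 24 h.

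Of 12 other importers of the ZIP family 9 were tested. After 6 h of BMP2 or of TSA 0 were called. After 24 h of TSA 2 were called higher and 2 lower, 4 of 9 where 35.4% of all probe sets were called. Slc39a10, a plasma membrane importer, had 709 ± 185 (SD, n = 4) in TSA and 1035 ± 120 (SD, n = 6) in controls (-0.55, adjusted p = 0.00731). Slc39a3 had -0.41 (adjusted p = 0.00383), and Slc39a11 was higher by 0.60 (adjusted p = 0.0119). Slc39a13 had 0.30 (adjusted p = 0.0473) and was lost in 15 of its 21 alternatives. After 24 h of BMP2 1 was called, Slc39a3, lower by -0.37 (adjusted p = 0.0477), which was lost in 8 of 20 alternatives, where 16.5% of all probe sets were called. The called changes of these importers were between -0.55 and 0.60, against 3.44 for Slc39a8.

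**Figure D5:**
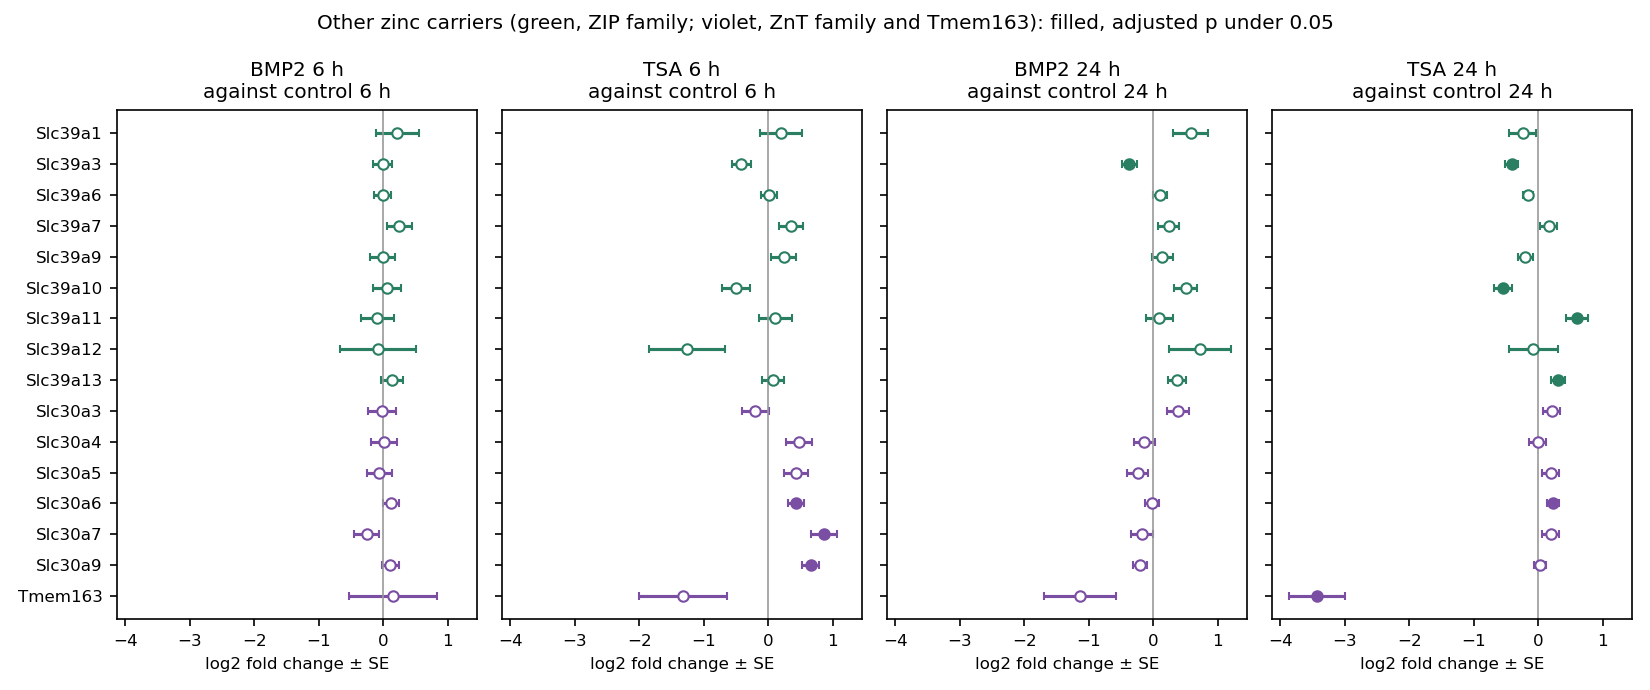
Log2 fold changes (x axis, points) with standard errors (bars) of the 16 tested zinc carriers that are not among the 7 genes, for BMP2 and TSA against controls at each time. Tmem163 at TSA 24 h, at -3.43, is farthest from 0. Filled points have an adjusted p under 0.05.

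Genes of copper and iron handling, metals that members of the group also bind or carry, were called after TSA at both times and after BMP2 at 24 h, as many other probe sets were. Of 13 copper genes 10 were tested, and 3 were called higher and 0 lower after 6 h of TSA (22.5% of all probe sets) and 4 higher and 1 lower after 24 h (35.4%). Slc31a1, the copper importer CTR1, had 1309 ± 20.8 at 6 h of TSA and 677 ± 33.0 in controls (SD, n = 2 each), with a log2 fold change of 0.92 (adjusted p = 0.000836). The others of 6 h were the copper chaperone Atox1 (0.89, adjusted p = 0.00771), lost without control replicate 1 or TSA replicate 2, and the copper ATPase Atp7a (0.75, adjusted p = 0.0181), lost without any 1 array. At 24 h of TSA the metalloreductase Steap2 had 279 ± 67.6 (SD, n = 4) against 113 ± 27.0 (SD, n = 6) in controls (1.11, adjusted p = 9.05e-05), and the copper ATPase Atp7b 192 ± 22.3 against 102 ± 21.5 (0.75, adjusted p = 0.000583). The others of 24 h were Atox1 (0.57, adjusted p = 0.00517), Slc31a1 (0.29, adjusted p = 0.0382), lost in 11 of 22 alternatives, and Commd1, which was lower (-0.53, adjusted p = 0.0202) and lost in 4 of 22. Of 15 genes of iron and manganese handling 11 were tested, with 2 higher and 0 lower at 6 h of TSA (22.5% of all) and 1 higher and 2 lower at 24 h (35.4%). The higher one at 24 h was Slc40a1, the iron exporter ferroportin (1.14, adjusted p = 0.00559), and the transferrin receptor Tfrc was lower (-0.86, adjusted p = 0.00828). After BMP2 0 of these copper, iron and manganese genes were called at 6 h, and at 24 h 1 copper gene was higher and 1 lower, and 2 iron and manganese genes higher and 1 lower, where 16.5% of all probe sets were called. With the Xist group as a term the 24 h calls of Slc30a6, Slc39a13, Slc31a1 and Commd1 after TSA were lost. So were those of Atp2c1 (higher) and Aco1 (lower), genes of the iron and manganese list, after 24 h of BMP2.

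Marker genes of the cells in the cultures were called in the same comparisons, in which 22.5% of all probe sets were called at 6 h of TSA, 16.5% at 24 h of BMP2 and 35.4% at 24 h of TSA. Of 6 astrocyte markers 0 were called higher and 3 lower at 6 h of TSA, 0 higher and 3 lower at 24 h of BMP2, and 0 higher and 2 lower at 24 h of TSA, while 4 were higher and 1 lower in TSA against BMP2 at 24 h (38% of all). Their summed signal was 12100 to 13860 in BMP2, 17040 to 23690 in TSA and 14670 to 22250 in controls at 24 h. All TSA arrays of 24 h are in the low Xist group and both BMP2 arrays in the high one. No value with that group as a term is given for the markers. Of 5 measured oligodendrocyte lineage markers 4 were lower at 24 h of BMP2 and 3 at 24 h of TSA, with summed signals of 10880 to 11480 in BMP2, 13950 to 20070 in TSA and 20970 to 25820 in controls. These sums stood below the controls on every treated array of 24 h and also of 6 h. At 6 h they were 21190 to 23090 in BMP2 and 20160 to 20450 in TSA, against 25870 to 27640 in controls. Of these markers 3 were lower at 6 h of TSA and 1 at 6 h of BMP2, where 1.47% of all probe sets were called.

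Of 4 neuron markers 2 were lower at 6 h of TSA, 1 was higher at 24 h of BMP2, and 1 was higher and 2 lower at 24 h of TSA, where their summed signal was 430 to 916, against 1034 to 2489 in the controls. Of 4 neural progenitor markers 1 was lower at 6 h of TSA, 0 were called at 24 h of BMP2 and 2 were higher at 24 h of TSA. Of 3 measured markers of the ganglionic eminence 1 was lower at 6 h and 1 at 24 h of TSA, and of 2 tested mural cell markers 1 was lower at 24 h of BMP2. Of 5 endothelial markers 4 stayed under a group mean of 100. The other was Kdr, a VEGF receptor, which was higher in both groups in which Slc39a8 rose, with 254 and 306 in BMP2, 99.6 to 170 in TSA and 62.6 to 118 in controls at 24 h (1.36, adjusted p = 0.000129 for BMP2 and 0.41, adjusted p = 0.0421 for TSA). BMP2 stood above all controls and TSA overlapped them, and the order of BMP2 and TSA was the opposite of that of Slc39a8. All 6 microglia, 3 choroid plexus and 2 measured erythroid markers stayed under a group mean of 100. In such bulk cultures fewer cells of a type and less RNA in each cell cannot be told apart, and the part of the cell types in the values of the 7 genes was not tested.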

How the data were processed

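RNA of 18 samples was measured on Affymetrix Mouse Genome 430 2.0 arrays, in 6 groups of treatment and time taken from the labels. The deposited intensity values are on a linear scale, with 1 value for each probe set and array. The submitters' notes name MAS5 and the study's methods dChip with quantile normalization, and which of them made these values is not given in the sources used here. The deposited medians of the arrays were 35.4 to 41.6, arrays of a group correlated at 0.963 to 0.994, and at most 0.64% of the values of a pair were identical. The number of arrays limits the precision.

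Signals were quantile-normalized, 32 was added and the log2 taken, and 1 model of the 6 groups was fitted in limma 3.58.1 (R 4.3.3; eBayes with trend), with Benjamini-Hochberg adjustment within each of 9 comparisons. The 64 array control probe sets were left out of the tests. All 7 genes are named, each led by its brightest probe set. From each list of other genes, up to 6 with the smallest adjusted p were named, and those most correlated with each member. The members and lists were chosen with earlier results of these data known. Motifs were counted in RefSeq promoter windows of GRCm38.p6, and 6 of the 7 genes had a window. Slc39a14 is named only.

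Replicate numbers were checked on deviations from the group means. TSA and control arrays of 24 h with the same number correlated at 0.28 to 0.57 in 4 of 4 pairs, 3 of them highest at their own number. They were taken as paired from these data, since the labels do not state a shared culture. The main fit held no block for this pairing, which entered only as an alternative. Alternatives were other normalizations, pseudocounts and filters, no trend, fewer groups, the Xist group, a replicate block, the study's criteria and each array left out. The fit was tested on simulated data.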

Additional observations from a re-analysis of the deposited data

Results flagged for a closer look

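Among the 4 TSA and 6 control arrays of 24 h, 20 groups of values of the tested probe sets were searched for an array far from the rest, and chance alone marks about 1 in 20 such groups. The brighter probe set of Mtf1 had 230.8 on TSA replicate 1 of 24 h, against 601.8 to 643.1 on the other 3 TSA arrays. Its dimmer probe set had 65.46 on TSA replicate 2 of 24 h, against 86.04 to 87.45 on the others. The lone arrays differ between the 2 probe sets of this gene. Slc39a8 had 40.93 on control replicate 6 of 24 h, against 8.206 to 19.29 on the other controls. Without that control the log2 fold change of Slc39a8 was 3.56 for TSA (adjusted p = 1.03e-08 from limma) and 1.67 for BMP2 (adjusted p = 4.17e-05).

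The TSA effect on Slc39a8 differed between the times, by 3.08 on the log2 scale (adjusted p = 0.00032 in the limma test of the difference itself). Slc39a8 was higher on 4 of 4 TSA arrays of 24 h than on any other array. Its probe set had passed the filter only through its high 24 h groups with treatment, so that a difference was built in.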

How the results depend on the processing

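Of 19 called log2 fold changes of the 7 genes, none changed sign in 347 refits, 304 kept their call and 43 lost it. Of 13 that were not called but had an unadjusted p under 0.05, 17 of 271 refits gave a call. The counts of called member probe sets moved as follows. For TSA 6 h against control (2 in the main fit), leaving out 1 array gave 0 to 1 and the study's criteria (ratio over 2, difference over 100, unadjusted p under 0.1) 0. For BMP2 24 h (1) the replicate block gave 4, leaving out 1 array 1 to 3 and the study's criteria 0. For TSA 24 h (4) the study's criteria gave 1 and leaving out 1 array 3 to 5. For TSA against BMP2 at 6 h (2) the replicate block gave 4, leaving out 1 array 1 to 2 and the study's criteria 1. At 24 h (6) the Xist group as a term gave 1, the replicate block within time and Xist group 3, and leaving out 1 array 1 to 6, with 1 (Slc39a8) without BMP2 replicate 2. For the BMP2 effect of 24 h minus that of 6 h (0) the replicate block gave 1 and leaving out 1 array 0 to 1. For the TSA effects (1), no filter gave 2 and the replicate block 2, also within Xist groups. For control 24 h against 6 h (3), no filter gave 1, only these groups 0, the study's criteria 1 and leaving out 1 array 0 to 3. At 6 h same-numbered arrays correlated at 0.57 to 0.71, but 2 numbers do not establish a pairing, and for BMP2 at 24 h at -0.13 to 0 with the controls. In the paired TSA and control arrays of 24 h the replicate block changed the call of Mt1 (0.45, adjusted p = 0.0294) and of no other member. The replicate block gave no value for controls between times, whose numbers are nested in time. Of 25 called changes of the named carrier, copper and iron genes, 85 of 484 refits lost the call. The cause of these changes was not tested. Groups of 2 arrays limit all 6 h and BMP2 results.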
